A study of Homo sapiens with 6 samples.

Results

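The carcinoembryonic antigen-related cell adhesion molecules (CEACAM) were examined in HT29 cells after knockdown of aldolase A. The genes were chosen by name, as the rows whose gene symbol was CEACAM1, CEACAM5, CEACAM6, CEACAM7 or CEACAM19, which gave 5 of the 28278 genes counted. HT29 is a human colorectal adenocarcinoma line with epithelial morphology. The cells received siRNA against ALDOA, the glycolytic enzyme aldolase A (siALDOA, genotype ALDOA KD), or a scrambled siRNA (siControl). Total RNA was isolated 48 h later. Each group held 3 libraries labelled as biological replicates. The comparison asked which transcripts changed when ALDOA was reduced. It rests on 1 cell line and 1 knockdown condition, which the sample titles call siALDOA without the number of siRNA sequences. Cells without siRNA were not analysed here.

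CEACAM proteins are cell surface glycoproteins of the immunoglobulin superfamily that bind each other between neighbouring cells, and several of them serve as receptors for bacteria at mucosal surfaces. CEACAM1 spans the membrane and its long isoform carries inhibitory tyrosine motifs that recruit the phosphatases SHP1 and SHP2, and its gene is known to respond to interferon. CEACAM5 (carcinoembryonic antigen, the serum marker of colorectal cancer), CEACAM6 and CEACAM7 are held in the outer leaflet by a glycosylphosphatidylinositol (GPI) anchor, and CEACAM19 is a less studied transmembrane member.

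The 5 genes lie on the long arm of chromosome 19 (hg38, GENCODE release 44). CEACAM7 (ENSG00000007306, chr19:41673303-41706976, minus strand) and CEACAM5 (ENSG00000105388, chr19:41708585-41730433, plus strand) are 1.61 kb apart. CEACAM6 (ENSG00000086548, chr19:41750977-41772211, plus strand) follows after a gap of 20.5 kb. CEACAM1 (ENSG00000079385, chr19:42507304-42561234, minus strand) lies 735 kb further on, and CEACAM19 (ENSG00000186567, chr19:44662278-44684359, plus strand) another 2101 kb beyond it. The 4 genes other than CEACAM19 have similar coding sequences. In pairwise alignments, the coding sequences of CEACAM5 and CEACAM6 were identical at 90.9% of aligned bases and those of CEACAM1 and CEACAM6 at 89.2%. The other pairs among CEACAM1, CEACAM5, CEACAM6 and CEACAM7 lay between 82.0% and 84.3%.

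The 250 bases before the RefSeq start site (GRCh38.p14) of these 4 genes are shown 5′ to 3′ along the gene, since CEACAM1 and CEACAM6 changed in opposite directions. Capitals mark matches, found on either strand, to an interferon-stimulated response element core (GAAANNGAAA), an E-box (CACGTG, the site of upstream stimulatory factors) and a GC box (GGGCGG, the site of SP1).
CEACAM1, chr19:42528482-42528731, minus strand: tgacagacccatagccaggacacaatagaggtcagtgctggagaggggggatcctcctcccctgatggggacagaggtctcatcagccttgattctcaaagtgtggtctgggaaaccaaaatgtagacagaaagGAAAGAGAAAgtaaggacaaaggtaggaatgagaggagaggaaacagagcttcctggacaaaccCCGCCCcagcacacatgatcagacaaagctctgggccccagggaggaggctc
CEACAM5, chr19:41708376-41708625, plus strand: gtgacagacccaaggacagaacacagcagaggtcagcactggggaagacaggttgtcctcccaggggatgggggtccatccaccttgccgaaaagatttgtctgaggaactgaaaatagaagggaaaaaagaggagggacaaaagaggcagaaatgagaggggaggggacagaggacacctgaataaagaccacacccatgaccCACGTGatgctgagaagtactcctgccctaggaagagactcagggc
CEACAM6, chr19:41755280-41755529, plus strand: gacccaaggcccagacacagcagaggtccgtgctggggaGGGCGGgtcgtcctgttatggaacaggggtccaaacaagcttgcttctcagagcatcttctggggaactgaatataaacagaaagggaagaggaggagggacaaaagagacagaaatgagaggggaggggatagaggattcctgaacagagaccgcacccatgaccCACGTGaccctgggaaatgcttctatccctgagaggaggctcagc
CEACAM7, chr19:41688271-41688520, minus strand: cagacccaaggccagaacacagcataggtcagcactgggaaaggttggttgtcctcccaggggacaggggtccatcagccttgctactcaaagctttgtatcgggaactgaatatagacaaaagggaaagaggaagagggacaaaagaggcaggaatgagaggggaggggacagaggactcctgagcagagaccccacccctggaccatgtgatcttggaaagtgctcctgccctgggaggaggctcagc
The RefSeq start sites of all 4 genes lie inside the GENCODE gene bodies given above, so other annotated starts lie upstream of them, and the windows hold bases of those gene bodies.

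The 4 windows resembled each other, with 72.0% (CEACAM1 and CEACAM5) to 84.4% (CEACAM5 and CEACAM7) identical bases over their alignments. The interferon-stimulated response element core was found in the CEACAM1 window, from -116 to -107 relative to the start, and not in the other 3. This motif was present in 3.02% of the 35116 promoter windows of the genome. The E-box was found in CEACAM5 (-46 to -41) and CEACAM6 (-45 to -40) and in 6.34% of all windows. The GC box was found in CEACAM6 (-211 to -206) and, on the opposite strand, in CEACAM1 (-52 to -47), and in 42.6% of all windows. The interferon-gamma-activated site (TTCNNNGAA), present in 6.57% of all windows, was not found in these windows, and the CEACAM7 window held no match to the 4 motifs. No matches overlapped each other. These are matches of letters and not measured binding.

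The libraries held 27277538 to 33237914 counts, and 1 CPM, the unit of counts scaled to the size of the library, corresponded to 27.8 to 32.95 counts. Ribosomal RNA genes took 7.71% to 13.1% of counts in siALDOA and 8.15% to 17.4% in siControl. ALDOA itself was lower in the siALDOA libraries (283, 305 and 280 CPM) than in the siControl libraries (592, 637 and 668 CPM), with a log2 fold change of -1.13 (SE 0.060, edgeR adjusted p = 6.95e-11, n = 3 per group). The epithelial markers were in keeping with the labelled cell type: 8 of 8 passed the filter on low counts, with summed levels of 9467 to 9797 CPM in siALDOA and 10029 to 10589 CPM in siControl. KRT19 rose (log2 fold change 0.38) and KRT18, which has many pseudogene copies, fell (-0.28), a call lost in 5 of 15 alternative settings. Of 11 leukocyte markers, including CEACAM3, CEACAM4 and CEACAM8 of granulocytes, 0 passed the filter and none exceeded 4 counts in a library. Fibroblast markers (0 called by edgeR of 2 tested) summed to at most 4.46 CPM. Endothelial markers summed to at most 2.25 CPM, with 1 tested, PECAM1, called lower at -1.23, a call lost in 6 of 15 settings. These counts of calls are too small to set against the 4.36% higher and 5.29% lower among all tested genes.

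CEACAM1, the transmembrane receptor, rose after ALDOA knockdown and CEACAM6 fell, whereas CEACAM5, CEACAM7 and CEACAM19 did not pass the test. So 1 of the 5 genes was called higher, beside 4.36% of the 15307 genes tested, and 1 of 5 was called lower, beside 5.29%, at a Benjamini-Hochberg adjusted p under 0.05 over all tested genes. With library totals as the only scaling, 896 genes (5.85%) were higher and 279 (1.82%) lower, against 668 and 810 with TMM, and the same 2 CEACAM genes were called. At an unadjusted P under 0.01, the threshold used in the study's methods, 1 of 5 was higher (5.72% of all genes) and 2 of 5 were lower (6.74%). The ranges of the groups did not overlap for 3 of 5 genes, against 27.7% of all genes tested. All 5 genes passed the filter on low counts. Over all tested genes, log2 fold changes had a median of 0.0016, and 0.13 in absolute value.

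CEACAM1 stood at 246, 259 and 251 CPM in siALDOA replicates 1, 2 and 3, and at 206, 193 and 189 CPM in siControl replicates 1, 2 and 3. Every siALDOA library lay above every siControl library, and the lowest siALDOA library exceeded the highest siControl library by more than the spread within either group. The means were 252 ± 6.75 and 196 ± 8.54 CPM (SD, n = 3 each), a 28.5% increase, and the log2 fold change was 0.36 (SE 0.056, 95% interval 0.24 to 0.48, edgeR adjusted p = 2.02e-04). The change was of moderate size among all genes: 14.8% of tested genes had a larger absolute log2 fold change. The counts behind these values were 5898 to 7793 per library, so counting error was smaller than the spread between libraries. The counts are per gene, and the long and short isoforms of CEACAM1, which differ in the inhibitory motifs of the tail, cannot be told apart in them. In bulk RNA, more cells expressing a gene and more of its RNA in each cell cannot be told apart either.

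CEACAM6, a GPI-anchored adhesion molecule often raised in colorectal tumours, changed in the opposite direction. It stood at 18.3, 18.4 and 20.6 CPM in siALDOA replicates 1, 2 and 3, and at 24.4, 25.0 and 27.5 CPM in siControl replicates 1, 2 and 3. The groups did not overlap, and replicate 3 was the highest library of each group. The means were 19.1 ± 1.32 and 25.7 ± 1.64 CPM (SD, n = 3 each). CEACAM6 fell by 25.6%, with a log2 fold change of -0.43 (SE 0.091, 95% interval -0.62 to -0.24, edgeR adjusted p = 0.00411). These values rest on 510 to 907 counts per library.

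CEACAM5, the carcinoembryonic antigen itself, gave a fold change of similar size to CEACAM6 and a wider error. Its levels were 7.69, 5.86 and 8.94 CPM in siALDOA replicates 1, 2 and 3, and 10.04, 9.96 and 10.8 CPM in siControl replicates 1, 2 and 3. The siControl libraries lay close together, the siALDOA libraries spread more, and no siALDOA library reached a siControl library. The means were 7.49 ± 1.55 and 10.3 ± 0.466 CPM (SD, n = 3 each), with a log2 fold change of -0.46 (SE 0.14, 95% interval -0.76 to -0.15). The unadjusted p was 0.00505 and the edgeR adjusted p was 0.0516, just outside the threshold. The call depended on the processing: 5 of 8 other tests, scalings or filters gave an adjusted p under 0.05, from 0.0124 without a filter on low counts to 0.0468 with limma-voom. Leaving out siALDOA replicate 3 gave -0.60 (adjusted p = 0.0197) and leaving out siALDOA replicate 2, the lowest library, gave -0.30 (adjusted p = 0.224).

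CEACAM7, which marks the apical surface of mature colonocytes, had the fewest counts of the 5 genes. The siALDOA libraries held 2.19, 1.33 and 1.79 CPM and the siControl libraries 1.28, 0.950 and 2.31 CPM, from 29 to 76 counts per library. The groups overlapped, and siControl replicate 3 was the highest of the 6 libraries. The log2 fold change was 0.22 (SE 0.34, edgeR adjusted p = 0.753), and its 95% interval from -0.48 to 0.92 held both a decrease as large as that of CEACAM6 and an increase larger than that of CEACAM1. A change of either size was therefore not excluded at this depth and spread.

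CEACAM19, the transmembrane member, did not pass the test. Its libraries held 4.28, 4.66 and 4.43 CPM in siALDOA and 3.72, 3.77 and 4.28 CPM in siControl. The highest siControl library lay just above the lowest siALDOA library, so the groups overlapped. The log2 fold change was 0.18 (SE 0.18, 95% interval -0.18 to 0.55, edgeR adjusted p = 0.586), from 115 to 141 counts per library.

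**Figure D1:**
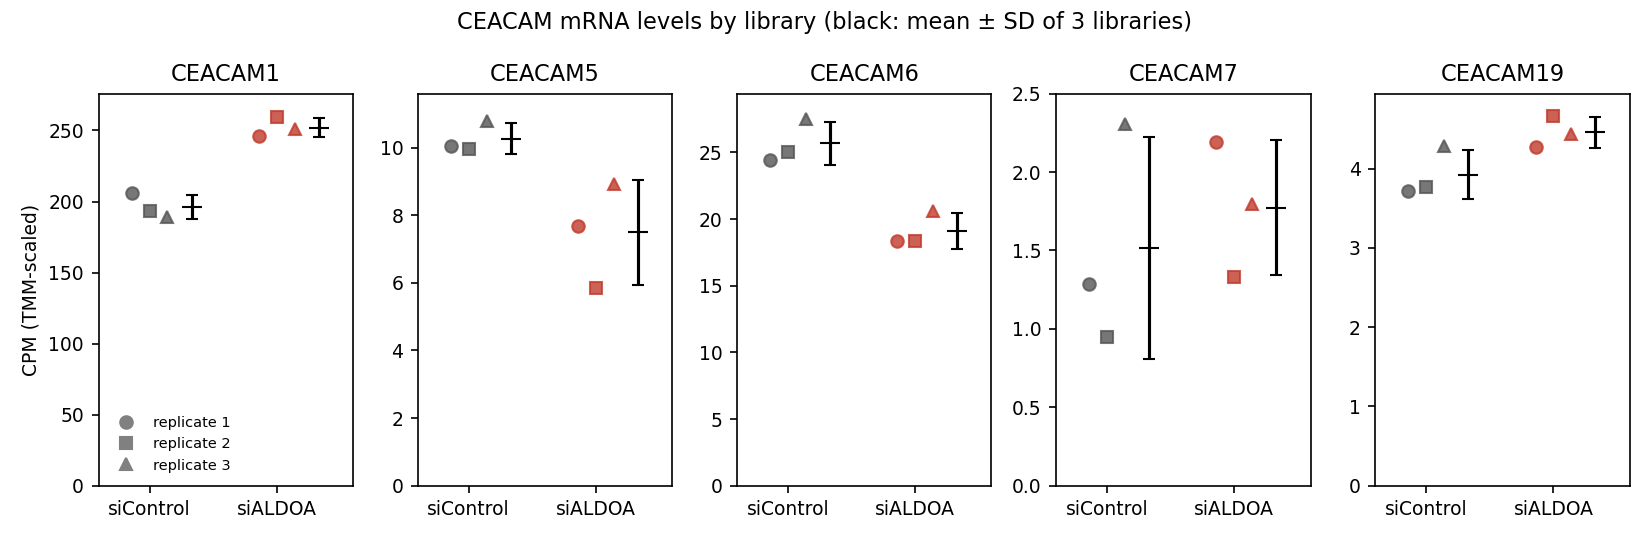
CPM (vertical axis, from 0, 1 panel per gene with its own scale) of the 5 CEACAM genes in each siControl (grey) and siALDOA (red) library, with the marker shape giving the replicate number and the black bars the mean ± SD of 3 libraries. The siALDOA points lie above the siControl points for CEACAM1 and below them for CEACAM5 and CEACAM6, and the points of CEACAM7 and CEACAM19 overlap.

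The fold changes of the 5 genes were recomputed with other tests, scalings and filters and with each library left out. CEACAM1 and CEACAM6 passed the threshold in 15 of 15 of these alternatives, with CEACAM1 between 0.34 and 0.44 and CEACAM6 between -0.48 and -0.36. CEACAM7 moved most, from -0.025 without siControl replicate 2 to 0.66 without siControl replicate 3. CEACAM19 stayed between 0.15 and 0.25 and did not pass in any alternative.

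**Figure D2:**
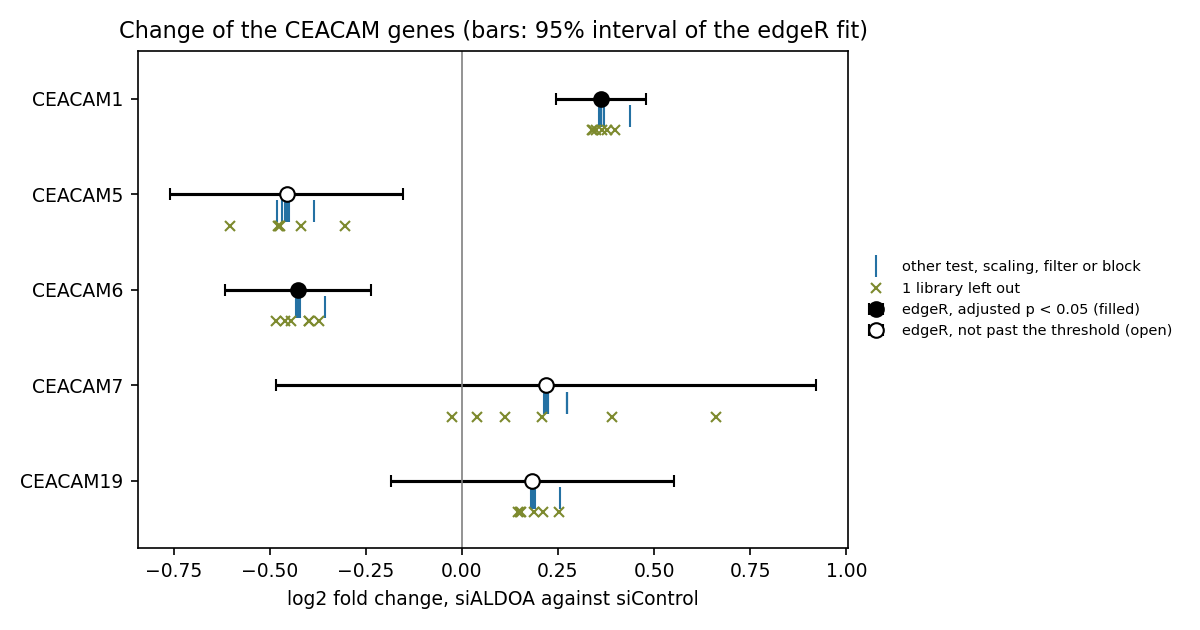
Log2 fold change of siALDOA against siControl (horizontal axis) for each CEACAM gene (vertical axis), with the edgeR estimate and its 95% interval as a circle with bars, filled where the adjusted p was under 0.05. Blue ticks are other tests, scalings, filters or a replicate block, and green crosses are fits with 1 library left out, which stay on the same side of 0 for all genes but CEACAM7.

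Levels were compared between the genes as CPM per kilobase of annotated exon. CEACAM1 led by a wide margin, with a level of 45.6 ± 1.22 in siALDOA and 35.5 ± 1.55 in siControl (SD, n = 3). CEACAM6 followed with levels of 6.46 ± 0.445 and 8.68 ± 0.554, and CEACAM5 with 1.88 ± 0.389 and 2.58 ± 0.117. The order of these 3 genes was the same in each library. CEACAM19 (0.861 ± 0.0372 and 0.758 ± 0.0599) and CEACAM7 (0.668 ± 0.162 and 0.570 ± 0.266) came last. In siControl the ranges of these last 2 genes overlapped, and in siALDOA the lowest library of CEACAM19 and the highest of CEACAM7 were both at 0.826, so with this length their order does not stand beyond the spread. The order depends on the length used. With the longest transcript, CEACAM19 (1.36 and 1.20) lay above CEACAM7 (0.712 and 0.608) in every library of each group. With the canonical transcript, CEACAM19 stood at 2.01 in siALDOA and 1.77 in siControl, and its siALDOA range of 1.93 to 2.103 lay inside that of CEACAM5, 1.67 to 2.55. CEACAM1 and CEACAM6 stayed first and second with each length. Comparing levels between genes also assumes that reads of each gene were counted equally well, which was not tested.

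The balance between the genes within a library does not depend on how libraries are scaled. CEACAM1 made up 88.3%, 89.6% and 87.5% of the counts of the 5 genes in siALDOA replicates 1, 2 and 3, and 83.9%, 83.0% and 80.8% in siControl replicates 1, 2 and 3. There were 13.4, 14.1 and 12.2 CEACAM1 counts for each CEACAM6 count in siALDOA and 8.42, 7.72 and 6.88 in siControl. For each CEACAM5 count there were 32.0, 44.3 and 28.1 CEACAM1 counts in siALDOA and 20.5, 19.4 and 17.5 in siControl. All of these ratios were higher in every siALDOA library than in every siControl library.

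The log2 ratio of CEACAM1 to CEACAM6 differed by 0.79 between the groups and that of CEACAM1 to CEACAM5 by 0.84. The log2 ratio of CEACAM5 to CEACAM6 differed by -0.049, and its groups overlapped (exact permutation p = 1). Of the 10 pairs of genes, 5 did not overlap between the groups. The pairs share genes, and the share of other gene pairs that do not overlap was not computed. These were CEACAM1 to CEACAM5, CEACAM1 to CEACAM6, CEACAM1 to CEACAM19 (0.18), CEACAM5 to CEACAM19 (-0.66) and CEACAM6 to CEACAM19 (-0.61). Each of the 5 reached a two-sided exact permutation p = 0.1, the smallest that 3 against 3 libraries allow, and 0.2 after Benjamini-Hochberg adjustment over the 10 pairs, so no ratio could pass the threshold. The pairs with CEACAM7 overlapped, with differences of -0.77 for CEACAM5 and -0.73 for CEACAM6 (exact permutation p = 0.2, adjusted 0.286 for both), and 0.063 for CEACAM1. Leaving out 1 library kept the sign of the 5 ratios that did not overlap, but CEACAM1 to CEACAM19 dropped to 0.087 without siControl replicate 3. The sign of CEACAM5 to CEACAM6 turned without siALDOA replicate 2 (0.091), and CEACAM1 to CEACAM7 ranged from -0.32 without siControl replicate 3 to 0.34 without siControl replicate 2.

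**Figure D3:**
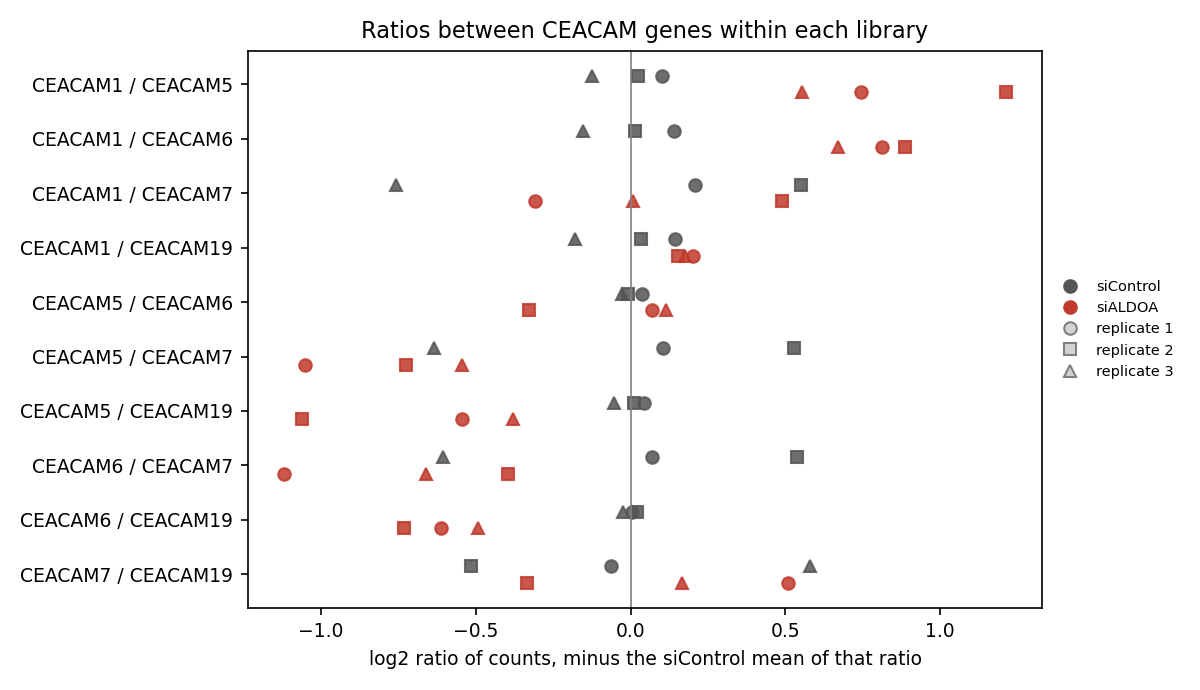
Log2 ratio of counts for each pair of CEACAM genes within a library (horizontal axis, as the difference from the siControl mean of that pair), with siControl libraries in grey, siALDOA libraries in red and the marker shape giving the replicate number. The ratios of CEACAM1 to CEACAM5 and CEACAM6 lie to the right in the 3 siALDOA libraries, the ratios of CEACAM5 and CEACAM6 to CEACAM19 lie to the left, and the ratio of CEACAM5 to CEACAM6 overlaps.

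Because these genes are alike in sequence, the share of each canonical transcript that occurs letter for letter in another gene was computed. Over stretches of 150 bases, CEACAM1, CEACAM7 and CEACAM19 shared none, and CEACAM5 and CEACAM6 shared 0.447% and 0.0409% of their stretches with a readthrough gene annotated across both. Over 100 bases the shares were 0.531% for CEACAM1 (with CEACAM3), 1.91% for CEACAM5 and 2.04% for CEACAM6. Over 50 bases they were 4.18%, 6.26% and 8.25%, and 0 for CEACAM7 and CEACAM19. Counts from such stretches are uncertain. Overlaps of gene bodies were measured for CEACAM1 and CEACAM19 with 1 neighbour each. The overlap of the readthrough gene with CEACAM5 and CEACAM6 was not measured in this way. LIPE-AS1 runs antisense across CEACAM1 and shares 185 exon bases, or 3.35% of the CEACAM1 exon bases, and was near 1 CPM (1.36 in siALDOA and 1.23 in siControl). PVR ends inside the CEACAM19 gene on the same strand and shares 121 exon bases, or 2.34% of those of CEACAM19. PVR stood at 216 CPM in siALDOA and 259 CPM in siControl, and CEACAM19 at only 4.46 and 3.92 CPM. How many of the CEACAM19 counts came from PVR was not tested, which limits the level and ratios of CEACAM19.

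The files held 24 genes of the CEACAM family and of the related pregnancy-specific glycoproteins (PSG). Of the 19 others, 8 had no count in any library and 10 stayed under 10 counts, with a highest value of 7. CEACAM18 was the exception, at 0.599 to 0.683 CPM in siALDOA and 0.516 to 0.866 CPM in siControl, and the groups overlapped (log2 fold change -0.11, SE 0.41, edgeR adjusted p = 0.911). The granulocyte members and the PSG genes of placenta were thus listed at or near 0. The PSG genes are close copies of each other, and how the counting treated multiple matches is not stated.

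CEACAM1 signals through proteins that bind its cytoplasmic tail. Of 14 such partners and ligands, 12 were tested, 2 were higher (4.36% of all tested genes were) and 2 were lower (5.29% of all), with the median log2 fold change at -0.013 beside 0.0016 for all genes. SHC1, an adaptor of receptor tyrosine kinases, rose by 0.36 (SE 0.064, edgeR adjusted p = 8.09e-04). FLNA, the actin crosslinker filamin A, fell by 0.49 on the log2 scale (adjusted p = 9.28e-05), and PTPN11, which encodes SHP2, fell by 0.24 (adjusted p = 0.00758). PTPN6, which encodes SHP1, was at 21.1 ± 0.600 and 19.5 ± 0.763 CPM (log2 fold change 0.12, adjusted p = 0.455). The ligand HAVCR2 and the integrin chain ITGB3 were at or near 0 counts. The call of PTPN11 was lost in some alternatives. It gave -0.17 (adjusted p = 0.214) with library totals as the only scaling and missed the threshold narrowly in 2 fits with a library left out (adjusted p up to 0.0511).

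The splicing regulators of the CEACAM1 tail exon, HNRNPL, HNRNPA1 and HNRNPM, gave log2 fold changes of -0.018, 0.072 and 0.050, and 0 of 3 passed the edgeR test at the adjusted threshold or at an unadjusted p under 0.05, and 0 of 3 passed with DESeq2 or limma-voom, a count too small to set against the 4.36% higher and 5.29% lower among all tested genes. HNRNPA1 has many processed pseudogenes, so its counts are less certain.

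Of 12 transcription factors tied to CEACAM promoters or to the colon epithelium, 4 were higher and 2 were lower, beside 4.36% and 5.29% of all tested genes, with the median log2 fold change at -0.12. Among those that rose were factors of the interferon pathway. STAT2 rose from 47.3 ± 1.19 to 81.2 ± 7.30 CPM (log2 fold change 0.78, SE 0.071). IRF1 rose by 0.39 (edgeR adjusted p = 0.00196) and IRF9 by 0.27 (adjusted p = 0.0253), and the call of IRF9 was lost in 5 of the 6 fits that left out a library (adjusted p up to 0.157). USF2, which binds the E-box, fell by 0.36 on the log2 scale (adjusted p = 2.11e-04), from 148 ± 4.14 to 116 ± 1.81 CPM. KLF4, a factor of colonocyte differentiation, fell by 0.36 (adjusted p = 0.0279), a call lost with library totals as the only scaling and in 4 of 6 fits with a library left out (adjusted p up to 0.145). SP1 (-0.13), SP3 (-0.11), USF1 (-0.17) and SOX9 (0.10) did not pass.

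For reference, 10 of 10 interferon-inducible genes rose, beside 4.36% of all tested genes, with log2 fold changes from 0.72 (GBP1) to 2.32 (RSAD2) and a median of 1.51. The change of CEACAM1 (0.36) was smaller than each of them. Their part in the change of CEACAM1 was not tested.

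The GPI anchor of CEACAM5, CEACAM6 and CEACAM7 is built by the PIG enzymes of the endoplasmic reticulum. Of 28 genes of anchor synthesis, transfer and remodelling, 28 were tested, 1 was higher and 2 were lower, with the median log2 fold change at 0.0061. These shares were close to the 4.36% and 5.29% of all tested genes. PIGF, which helps add the ethanolamine phosphate of the anchor, fell from 22.0 ± 0.101 to 15.4 ± 0.371 CPM (log2 fold change -0.51, SE 0.090, edgeR adjusted p = 7.78e-04). PIGN fell by 0.31 (adjusted p = 0.0479), a call lost in 8 of the 15 alternatives (adjusted p up to 0.200). PIGV, a mannosyltransferase, rose by 0.32 (adjusted p = 0.00974).

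CEACAM5, CEACAM6 and CEACAM7 are raised in mature colonocytes. Of 18 other genes of these cells, 11 were tested, and 0 were called at the adjusted threshold by edgeR, DESeq2 or limma-voom (2 at an unadjusted edgeR p under 0.05), beside 4.36% higher and 5.29% lower among all tested genes, with the median log2 fold change at -0.050. KRT20 (-0.050), VIL1 (-0.10), CA2 (-0.31) and CDH17 (0.36) gave adjusted p values of 0.697, 0.286, 0.0936 and 0.182. Several genes of fully mature colonocytes, among them CA1, AQP8 and MS4A12, were at or near 0 counts.

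**Figure D4:**
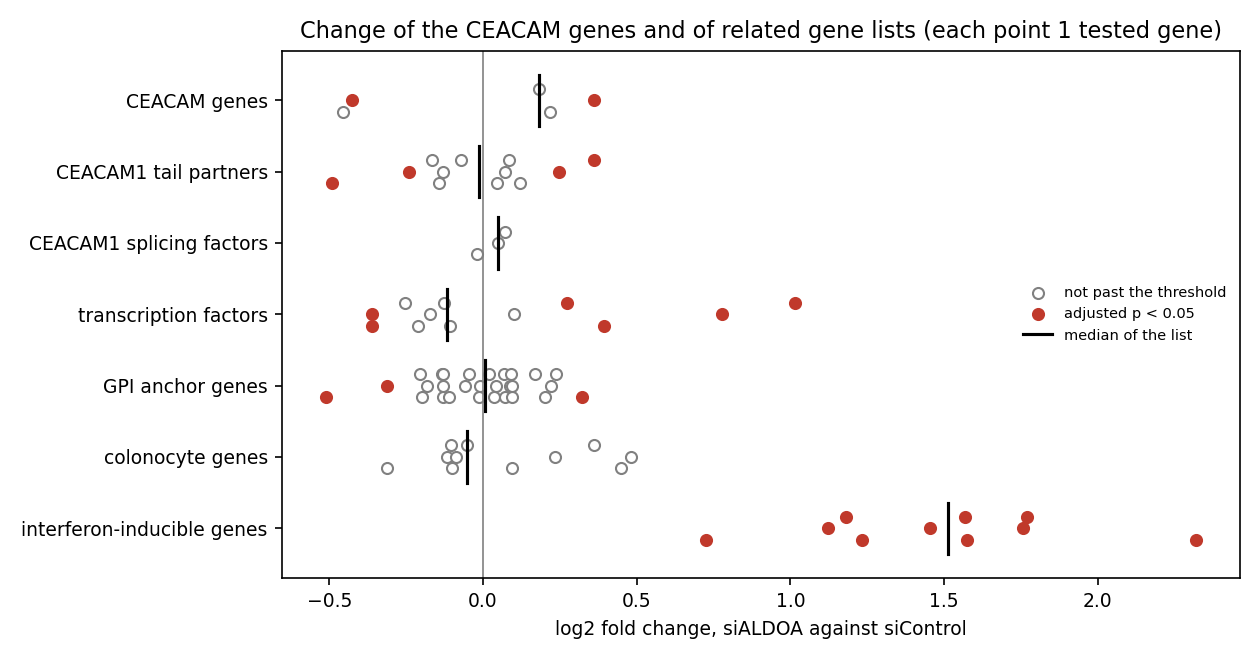
Log2 fold change of siALDOA against siControl (horizontal axis) for each tested gene of the CEACAM family and of the related lists (vertical axis), with genes past an edgeR adjusted p of 0.05 in red and the list median as a black line. The CEACAM genes fall on both sides of 0, as do the lists of tail partners, transcription factors and GPI anchor genes, and the 10 interferon-inducible genes lie at 0.72 or above.

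Within 200 kb of the 5 genes lay 37 neighbouring genes in the annotation that the files also listed, the 5 genes themselves left out and other CEACAM and PSG genes included, and 18 of these were tested. Of these, 2 were higher and 1 was lower, beside 4.36% and 5.29% of all tested genes, with the median log2 fold change at 0.0032. Around CEACAM1, 0 of 7 tested neighbours were called by edgeR, DESeq2 or limma-voom (0 at an unadjusted edgeR p under 0.05), with log2 fold changes from -0.42 (CXCL17, at 0.301 and 0.407 CPM) to 0.18 (PRR19). RABAC1, near CEACAM6, rose by 0.27 (adjusted p = 0.00675). PVR, the poliovirus receptor next to CEACAM19, fell by 0.26 (adjusted p = 0.00386), beside a log2 fold change of 0.18 for CEACAM19, and BCAM rose by 0.21 (adjusted p = 0.0388). The call of BCAM was lost in 5 of 6 fits with a library left out (adjusted p up to 0.193), that of RABAC1 without siControl replicate 3 (adjusted p = 0.05004) and that of PVR with library totals as the only scaling (-0.19, adjusted p = 0.171).

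For the 2 genes past the threshold, the genes with the most similar profile over the 6 libraries were found by the root mean square difference of centred log2 CPM, among the 13724 genes whose mean reached 1 CPM. Nearest to CEACAM1 were NPR2 (0.031), ATG14 (0.034) and GPR180 (0.036). NPR2 was not called (edgeR adjusted p = 0.0953) and passed in 0 of 15 alternatives, and the call of ATG14 was lost in 4 of 15. Among the 3 nearest to CEACAM6 were NF2 (0.033) and ESYT1 (0.036). The log2 fold changes of the genes near CEACAM1 were 0.30 to 0.35, and those of NF2 and ESYT1 were both -0.42. These genes thus had a difference between the 2 groups of similar size to CEACAM1 or CEACAM6. How much of the likeness lies within the groups was not computed.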

How the data were processed

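Total RNA of HT29 cells was sequenced as paired-end reads, and the deposited files give raw counts per gene symbol, 1 library per file. Per the study's methods and the labels, the authors used TopHat2 for alignment to hg38 and GFOLD for counting. The annotation, strand setting and handling of multiple matches are not given in the sources used here, and reads shared between similar or overlapping genes may be placed with either.

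Of 28278 genes, 15307 passed filterByExpr. They were scaled by TMM and tested with the quasi-likelihood test of edgeR 4.0.16 (R 4.3.3), 3 siALDOA against 3 siControl libraries, with Benjamini-Hochberg adjustment over all tested genes and a threshold of 0.05. The study named edgeR and limma with P under 0.01; here edgeR alone gave the main test, with an adjusted p, and limma-voom was an alternative. CPM use TMM-scaled totals. Ratios were compared by exact permutation over libraries. Promoter windows came from RefSeq, and gene models from GENCODE release 44.

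The CEACAM genes and the related lists were chosen with earlier results of these data known, and the lists were written from general knowledge. Named genes were ALDOA, the 5 members, other family genes with 10 or more counts in a library, list genes and neighbours within 200 kb past the threshold or up to 4 with the smallest p, and the 3 genes most alike to each called member. Some genes that this rule names are not reported here. The alternatives were limma-voom (3.58.1), DESeq2 (1.42.0), a likelihood ratio test, other scalings and filters, removal of ribosomal RNA genes, leaving out 1 library at a time, and a replicate block; the canonical transcript as a length was added after seeing the data. The replicate origin beyond the label is not stated, so p-values measure the spread between these libraries, which differed by more than counting noise.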

Additional observations from a re-analysis of the deposited data

How the results depend on the processing

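CEACAM1 and CEACAM6 kept their direction and their side of the threshold in every alternative run, CEACAM6 most narrowly with library totals as the only scaling (-0.36, adjusted p = 0.0378) and without siControl replicate 3 (adjusted p = 0.0406). CEACAM5 passed with limma-voom (-0.48), DESeq2 (-0.45), the likelihood ratio test (-0.46), no filter on low counts (-0.46), ribosomal RNA genes left out (-0.46) and the replicate block (-0.47), and ranged from -0.60 to -0.30 with a library left out; the cause was not tested. CEACAM7 ranged from -0.025 to 0.66 with a library left out, and its sign turned without siControl replicate 2. The count of all genes called, 1478, ranged from 836 (without siControl replicate 3; 863 without siControl replicate 2) to 1443 with a library left out, when fewer samples were tested, and from 1175 with library totals only to 1846 with the likelihood ratio test and 2162 with the replicate block. Levels per kilobase moved with the longest transcript as length, to 72.2 and 56.2 for CEACAM1, 7.36 and 9.89 for CEACAM6 and 1.36 and 1.20 for CEACAM19 in siALDOA and siControl, and to 2.93 for CEACAM5 in siControl. The canonical transcript, chosen after seeing the data, gave 2.01 and 1.77 for CEACAM19 and the same values as the longest transcript for CEACAM1, CEACAM5 and CEACAM6. The ratio CEACAM5 to CEACAM7 (-0.77) ranged from -1.09 (without siControl replicate 3) to -0.51 (without siControl replicate 2), CEACAM6 to CEACAM7 (-0.73) from -1.03 to -0.46 without the same libraries, and CEACAM7 to CEACAM19 (0.11) from -0.14 to 0.40, with a library left out.

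The replicate numbers were shared by both groups, and libraries of the same number correlated weakly in their deviations from the group means (r = 0.035, 0.027 and 0.026), although 6 of 6 libraries correlated best with their own number; the numbers were not taken as pairs. With the replicate block, 1 gene of the colonocyte list was called in place of 0. Library totals as the only scaling moved the median of all genes to 0.075.

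Depth limits CEACAM7 and CEACAM19, with 29 to 141 counts per library, more than CEACAM1. Isoforms, protein levels and cells without siRNA were not analysed here.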

Other observations

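Galectin-4 (LGALS4), a gene of the colon epithelium, was listed at 0 counts in 6 of 6 libraries, while the epithelial genes KRT20 and VIL1 of the same list lay between 273 and 340 CPM. The gene was singled out after its values were seen.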
